A study of Mus musculus with 80 samples.

Results

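The growth plate and the calvaria of mice without both gelatinases, Mmp2 and Mmp9, were compared gene by gene across the transcriptome. The comparison took in every library of the double knockout (MMPdKO in the sample descriptions, dKO here) from these 2 tissues, 7 growth plates and 7 calvariae, which made 14 of the 80 samples of the series. A gene was tested where any of the 14 libraries held 15 or more raw counts of it, which left 10134 of the 14688 genes in the table. All mice were C57BL/6J females aged 21 days and homozygous for the loss of both genes. The dKO was bred through double heterozygotes from single knockouts of different origin, the MMP9-/- line of a commercial supplier and the MMP2-/- line of another laboratory. Growth plates came from cleaned tibiae and the calvaria was a frontal bone, from which periosteum and suture mesenchyme were not removed. The other samples were femoral cortical bone and the same tissues of WT, MMP2-/- and MMP9-/- mice. Of these, only the 7 growth plates and 7 calvariae of WT mice were used, to ask whether the tissue difference itself differed between the genotypes.

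The growth plate is the cartilage between the epiphysis and the shaft of a long bone. Its chondrocytes divide in columns, enlarge, mineralize their matrix and are then replaced by bone as vessels and osteoclasts enter, the process called endochondral ossification. The frontal bone has no such template: it forms by intramembranous ossification, in which mesenchymal cells, here largely of neural crest origin, become osteoblasts directly. MMP-2 and MMP-9 are the gelatinases, secreted proteases that cut denatured collagen and basement membrane components. MMP-9 is produced in bone chiefly by osteoclasts and other marrow-derived cells, and MMP-2 chiefly by mesenchymal cells.

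Total raw counts ranged from 334395 to 808731 in the growth plates (median 576016) and from 329333 to 1919945 in the calvariae (median 719600). Levels are given as CPM, counts scaled to a common TMM-adjusted library total, and because the libraries read the 3′ ends of transcripts, a CPM stands for a share of transcripts and does not grow with gene length. The first principal component, 50.6% of the variance, separated the tissues, with growth plates from 15.2 to 34.2 and calvariae from -30 to -18.6. Calvaria replicate 1 stood apart from the other calvariae in meningeal and myelin genes: Ptgds, a prostaglandin synthase abundant in the meninges, was at 928 CPM there and at 21.4 to 79.7 CPM in the other 6. Results that rest on this library are given below with and without it.

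Both targeted genes kept some reads in the dKO. Mmp2 had a mean of 32.3 CPM in dKO growth plates and 17.2 CPM in dKO calvariae, against 420 and 564 CPM in the WT tissues. Mmp9 had means of 369 and 118 CPM in the dKO tissues, against 2520 and 838 CPM in WT. No dKO library reached the lowest WT library of its tissue for either gene: for Mmp9 the highest dKO growth plate was at 592 CPM and the lowest WT growth plate at 1550 CPM. The levels bear out the genotype labels, although a 3′ tag outside the deleted part of a gene does not report the deletion. The tissue difference of the remaining Mmp9 reads was 1.71 ± 0.21 (log2 growth plate over calvaria ± SE, adjusted p = 3.29e-06). That of Mmp2 was 1.01 ± 0.34 (adjusted p = 0.0283), a call that was lost, with adjusted p of 0.0521 to 0.0716, when growth plate replicate 3, 4, 6 or 7 or calvaria replicate 4 or 5 was left out.

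In all, 2514 genes were differentially expressed genes (DEGs), defined as a Benjamini-Hochberg adjusted p under 0.05 in edgeR's quasi-likelihood test and a fold change of at least 1.5. Of the genes tested, 12% (1217) were DEGs higher in the growth plate and 12.8% (1297) were DEGs higher in the calvaria, so that 48.4% of the DEGs were higher in the growth plate. Among the DEGs, 891 showed no overlap between the 7 libraries of one tissue and the 7 of the other. Of all 10134 genes tested, 484 had every growth plate above every calvaria and 453 the reverse, and statements of no overlap below are to be read against these. A change of more than 4-fold was seen for 138 DEGs in the growth plate direction and 108 in the calvaria direction. The median log2 fold change over all tested genes was -0.0185, and the median of each gene list below is to be read against it. A gene that reached the count minimum in one tissue only had its direction fixed by that filter, and where such genes made up much of a list their number is given. The named genes with the largest change toward the growth plate were Meltf, Il17b, Ucma, Snorc, Col2a1, Matn1, Syt8, Cnmd, Col9a2, Col10a1, Col9a3 and Pitx1. Toward the calvaria they were Ptgds, Myh8, Smtnl1, Sfrp2, Prg2, Csrp3, Mepe, Pou2af1, Dpt, Fcrla, Arl5c and Epx. The first set was made up mainly of cartilage matrix genes, whereas the second held genes of meninges, muscle, connective tissue, osteocytes, eosinophils and B cells. In whole tissue, fewer cells of a type and less RNA per cell cannot be told apart, and this holds for every list that follows.

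**Figure D1:**
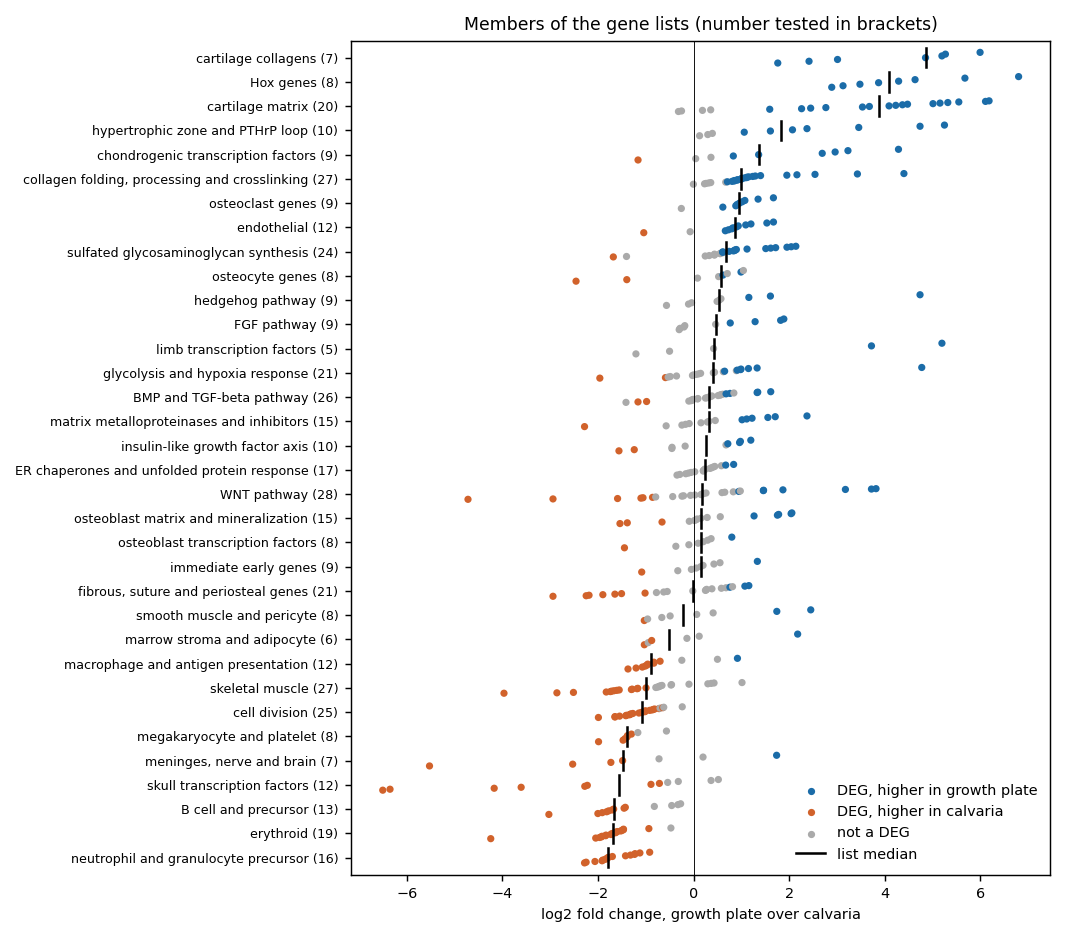
Each point is a tested member of a gene list, placed by its log2 fold change, growth plate over calvaria, with lists as rows in order of their median (black bar); colours mark DEGs higher in growth plate, DEGs higher in calvaria and genes that were not DEGs. The fitted positions of Hoxc6, Zic1 and En1, which had no count in one tissue, are no bounds. The list medians run from 4.85 for cartilage collagens to -1.79 for neutrophil genes.

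The cartilage collagens were higher in the growth plate without exception. All 7 list members were DEGs in that direction, none overlapped between tissues, and their median log2 fold change was 4.85. Col2a1, the main fibrillar collagen of cartilage, lay between 8892 and 48130 CPM in the growth plates (median 23010) and between 111 and 759.8 CPM in the calvariae (median 505). The growth plate with the least Col2a1 was thus far above the calvaria with the most. The difference was 5.99 ± 0.51 on the log2 scale, 63.6-fold (adjusted p = 2.59e-08). The chains of type IX collagen, which coats type II fibrils, changed by similar amounts: Col9a1 by 4.85 ± 0.43, Col9a2 by 5.27 ± 0.54 and Col9a3 by 5.19 ± 0.49 on the log2 scale. The remaining chains showed smaller differences, with sizeable levels in the calvaria as well. Col11a1 was at 726 to 1953 CPM in the growth plates and 193 to 365 CPM in the calvariae, 5.33-fold (adjusted p = 4.07e-08), and Col11a2 at 2536 to 5662 CPM and 1012 to 1721 CPM, 3.39-fold (adjusted p = 3.76e-07). Col27a1, a fibrillar collagen of cartilage, was 8.05-fold higher (adjusted p = 2.19e-08).

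Of 20 tested genes for other cartilage matrix components, 16 were DEGs higher in the growth plate and none was higher in the calvaria (median 3.88). Of the 20, 7 reached the count minimum in the growth plate only, which fixed their direction. Acan, the core protein of the large aggregating proteoglycan, had the second smallest p of all genes in the comparison: the growth plates held 1188 to 4618 CPM (median 2624) and the calvariae 65.9 to 140.5 CPM (median 78.9), a difference of 5.01 ± 0.30 (adjusted p = 2.54e-10). Snorc, a small transmembrane proteoglycan of cartilage, changed by 6.11 ± 0.56 (adjusted p = 6.77e-08), from a calvarial median of 71.6 CPM to a growth plate median of 3692 CPM. Ucma, a secreted vitamin K-dependent protein of the resting zone, was at 82.5 to 639 CPM in growth plates and at 0 to 14.7 CPM in calvariae (6.18 ± 0.56, adjusted p = 6.00e-08). The matrilins are matrix adaptor proteins, and the list held several of them with unlike results: Matn1 was 46.7-fold higher in the growth plate (adjusted p = 2.19e-08) and Matn3 22.2-fold (adjusted p = 4.87e-08). Matn4 overlapped between the tissues, at 16.6 to 147 CPM in growth plates and 20.8 to 158 CPM in calvariae (adjusted p = 0.552). Comp, a pentameric glycoprotein of cartilage and tendon, rose 18.7-fold (adjusted p = 2.07e-08) and Cnmd, an angiogenesis inhibitor made by chondrocytes, rose 39.9-fold (adjusted p = 2.59e-08). Cilp2, a protein of the deeper articular cartilage, had medians of 116 and 82.4 CPM and was not called (adjusted p = 0.346). Outside the list, Meltf, a membrane-anchored relative of transferrin, had 217 counts over the growth plates and 1 count over the calvariae, a depth-scaled ratio of 343 (95% counting interval 60.9 to 13600). Il17b, a cytokine of the IL-17 family, had a growth plate median of 137 CPM and a calvarial median of 0 CPM, with a highest calvaria of 8.3 CPM (6.80 ± 0.63, adjusted p = 7.05e-08).

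Within the calvariae, some cartilage genes, such as Col2a1 and Snorc, split the libraries. Col2a1 was at 569, 646, 505 and 760 CPM in replicates 1, 2, 3 and 7 and at 111, 148 and 129 CPM in replicates 4, 5 and 6. Snorc was at 71.6 to 116 CPM in the first set and at 9.11 to 14.3 CPM in the second. Acan did not divide them in this way, with 117 and 95.4 CPM in replicates 2 and 3 and 77.2 CPM in replicate 4. Nor did the summed cartilage collagens, at 2068 CPM in replicate 1 and 2025 CPM in replicate 4. The 3 libraries with the least Col2a1 were also the 3 with the highest totals, 934322 to 1919945 counts. The part of depth in this split was not tested. Among the growth plates, replicates 1 and 3 had the least Col2a1, 8892 and 11260 CPM, and replicate 2 the most, 48130 CPM.

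**Figure D2:**
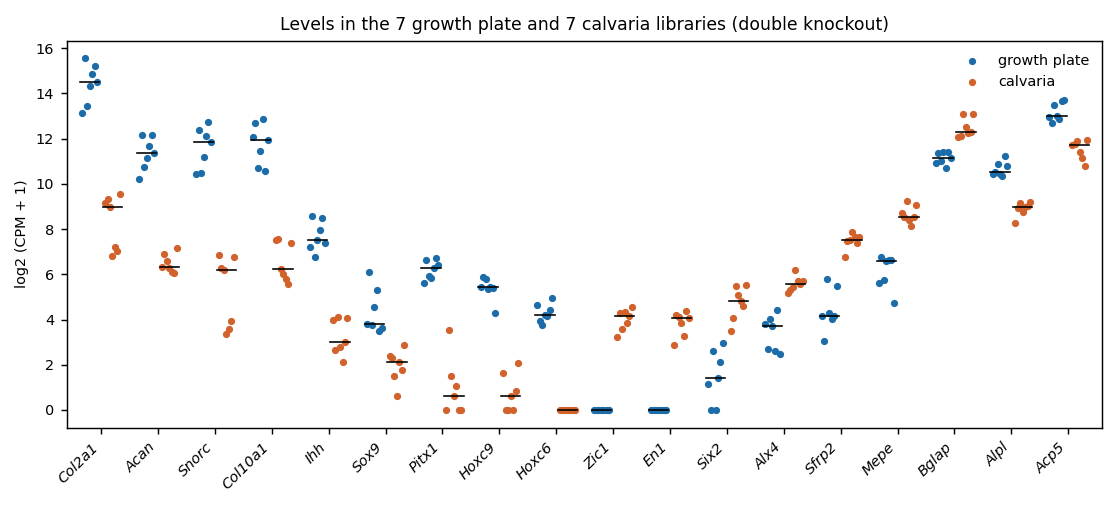
Level of 18 genes, as log2 of CPM plus 1, in each of the 7 growth plate and 7 calvaria libraries of the dKO; a point is a library and the line is the median. For none of the 18 genes do the tissues overlap, with Zic1 and En1 at 0 in every growth plate and Hoxc6 at 0 in every calvaria. Of all 10134 genes tested, 484 had every growth plate above every calvaria and 453 the reverse.

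The promoters of a few of these genes are shown because they belong to members that were higher in the growth plate (Acan, Matn1 and Col10a1, a hypertrophic collagen described below) or higher in the calvaria (Zic1 and Mepe, also below). Sequences are from RefSeq on GRCm38.p6 and run from 250 bases before to 50 after the start site on the strand of the gene. Capitals mark ACAAT (a core of SOX sites), TGTGGT (a core of RUNX sites) and TATAAA, each searched on both strands.
Acan, chr7:79052976-79053275, plus strand: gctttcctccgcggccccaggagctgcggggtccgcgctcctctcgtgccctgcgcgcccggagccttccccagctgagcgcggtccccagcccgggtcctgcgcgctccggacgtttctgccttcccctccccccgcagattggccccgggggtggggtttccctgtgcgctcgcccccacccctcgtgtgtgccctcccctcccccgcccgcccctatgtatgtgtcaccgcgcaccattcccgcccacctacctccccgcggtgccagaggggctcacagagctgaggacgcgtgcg
Matn1, chr4:130944135-130944434, plus strand: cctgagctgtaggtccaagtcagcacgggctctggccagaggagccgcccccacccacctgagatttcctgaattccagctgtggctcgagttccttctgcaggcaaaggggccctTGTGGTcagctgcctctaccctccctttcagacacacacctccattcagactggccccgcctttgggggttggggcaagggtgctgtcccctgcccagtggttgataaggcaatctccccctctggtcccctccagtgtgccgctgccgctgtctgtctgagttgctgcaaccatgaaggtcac
Col10a1, chr10:34389731-34390030, plus strand: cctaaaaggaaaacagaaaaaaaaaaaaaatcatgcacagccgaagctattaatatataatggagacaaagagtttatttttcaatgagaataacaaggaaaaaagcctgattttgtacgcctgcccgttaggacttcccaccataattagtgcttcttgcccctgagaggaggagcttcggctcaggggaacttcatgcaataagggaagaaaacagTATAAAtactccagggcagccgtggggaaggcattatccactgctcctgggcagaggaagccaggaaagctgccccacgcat
Zic1, chr9:91365719-91366018, minus strand: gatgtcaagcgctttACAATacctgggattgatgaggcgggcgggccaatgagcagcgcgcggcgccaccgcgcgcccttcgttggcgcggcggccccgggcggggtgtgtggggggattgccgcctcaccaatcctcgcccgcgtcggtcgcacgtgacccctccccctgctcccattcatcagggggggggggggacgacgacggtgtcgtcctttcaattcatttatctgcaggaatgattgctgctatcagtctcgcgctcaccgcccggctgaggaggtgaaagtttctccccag
Mepe, chr5:104325079-104325378, plus strand: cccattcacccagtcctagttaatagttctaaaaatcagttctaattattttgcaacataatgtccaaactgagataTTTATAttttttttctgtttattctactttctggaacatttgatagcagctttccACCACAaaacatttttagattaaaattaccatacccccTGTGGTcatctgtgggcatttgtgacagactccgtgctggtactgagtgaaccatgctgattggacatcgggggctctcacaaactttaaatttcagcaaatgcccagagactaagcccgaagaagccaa
The Acan window held none of these motifs, Matn1 held 1 TGTGGT, Col10a1 held 1 TATAAA, Zic1 held 1 ACAAT, and Mepe held 2 TGTGGT and 1 TATAAA. The motifs are short and common: over all 32817 promoters of the same length, 31.0% held ACAAT, 16.8% held TGTGGT and 13.6% held TATAAA. Promoters were matched for 21 of the 28 genes of the cartilage collagen and cartilage matrix lists, of which 23.8% held ACAAT, 23.8% TGTGGT and 9.52% TATAAA. A match marks letters in a window and is no evidence of binding.

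Genes of the hypertrophic zone, where chondrocytes enlarge and mineralize, were likewise higher in the growth plate. Of 10 tested genes of this zone and of the Ihh to PTHrP feedback loop that sets its position, 7 were DEGs in that direction and none in the other (median 1.84). Col10a1 (10:34389981-34397085, GRCm38), the collagen that defines hypertrophic chondrocytes, lay between 1508 and 7600 CPM in growth plates (median 3978) and between 46.8 and 187 CPM in calvariae (median 73.4), 38-fold apart (5.25 ± 0.43, adjusted p = 1.99e-08). Ihh, the hedgehog ligand of prehypertrophic cells, was 26.6-fold higher (108 to 377 against 3.29 to 16.5 CPM, adjusted p = 4.46e-09). Ihh reached the count minimum in the growth plate only, which fixed its direction, so that its call is a description. The receptor Pth1r, which binds PTHrP and is also present on osteoblasts, was 4.19-fold higher (795 to 1855 against 264 to 509 CPM, adjusted p = 6.69e-08). Panx3, a channel protein of prehypertrophic chondrocytes and osteoblasts, was 11-fold higher (adjusted p = 8.57e-07), and Mmp13, the collagenase of the lower hypertrophic zone, 5.17-fold (38.9 to 102 against 3.22 to 30.9 CPM, adjusted p = 4.81e-05). Of the members that were not called, Spp1, the secreted phosphoprotein osteopontin, was at 754 to 2121 CPM in growth plates and 573 to 2411 CPM in calvariae (adjusted p = 0.42), and the transcription factor Mef2d had medians of 191 and 182 CPM (adjusted p = 0.576).

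The hedgehog list had 3 DEGs of 9 tested, all higher in the growth plate: the ligand Ihh and the targets Ptch1 and Gli1. The direction of Ihh was fixed by the filter, as stated above. Ptch1, the receptor that hedgehog signalling induces, was at 20.6 to 77.5 CPM in growth plates and 1.83 to 27 CPM in calvariae (3.04-fold, adjusted p = 9.37e-04), and Gli1, a transcription factor that is also a direct target, had medians of 45.5 and 15.1 CPM (2.23-fold, adjusted p = 0.0056). Both overlapped between the tissues, and the number of the list called higher in the growth plate rose from 3 to 5 without growth plate replicate 5 and with all 80 libraries, while 1 was called higher in the calvaria in 6 alternatives, among them growth plate replicate 1 or calvaria replicate 1 left out. FGF signalling slows chondrocyte division through Fgfr3, and the FGF list had 4 DEGs of 9, all higher in the growth plate. Fgfr3 was 3.7-fold higher without overlap (108 to 359 against 47.7 to 77.1 CPM, adjusted p = 3.25e-06), Fgfr1 1.7-fold (adjusted p = 8.45e-05), and Fgfrl1, a receptor without a kinase domain, 2.44-fold (adjusted p = 4.19e-04). Spry4, a feedback inhibitor of receptor tyrosine kinases, was 3.53-fold higher (adjusted p = 0.00693), with growth plate replicate 1 at 44 CPM and the other growth plates at no more than 12 CPM. It had 68 counts over the growth plates and 26 over the calvariae. Of the 9 genes of the FGF list, 1 reached the count minimum in the growth plate only and 1 in the calvaria only, which fixed their direction.

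Among the transcription factors of the chondrocyte lineage, 6 of 9 tested were DEGs higher in the growth plate and 1, Sox6, was higher in the calvaria (median 1.36). Of the 9, 4 reached the count minimum in the growth plate only and 1 in the calvaria only, which fixed their direction, so that the count and the median are descriptions. Sox9, the master factor of chondrogenesis, was low in both tissues by this assay, at 10.2 to 68.6 CPM in growth plates and 0.536 to 6.38 CPM in calvariae, without overlap (9.37-fold, adjusted p = 8.86e-05). Its partner Sox5 was 6.45-fold higher (adjusted p = 5.14e-04) and Sox8, of the same subfamily as Sox9, 7.78-fold (adjusted p = 7.56e-04). Foxa2, a factor of hypertrophic differentiation, had 36 counts over the growth plates and 2 over the calvariae, a ratio of 28.4 (95% counting interval 7.32 to 244). Sox6, which acts with Sox5 in cartilage but is also a factor of erythroid cells and slow muscle repression, went the other way: it was at 10 to 32.5 CPM in growth plates and 25.5 to 102 CPM in calvariae, 2.24-fold (adjusted p = 0.00845, but 0.0887 with the mouse as a block in the 6 mice that gave both tissues). Runx1 was not called, with medians of 95 and 71.4 CPM (adjusted p = 0.0878). The number of these factors called higher in the growth plate fell from 6 to 2 without growth plate replicate 2 and stood at 4 to 6 elsewhere among the left-out libraries.

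The Hox genes, which give cells a position along the body axis and the limb, separated the tissues completely among those tested. The list held 39 genes; 22 were in the table, and the 8 that reached the count minimum did so in the growth plate only, so that their direction was fixed by the filter and their call is a description. Hoxc6, Hoxc9 and Hoxc10 lie together on chromosome 15 (102966796 to 103011881, GRCm38), Hoxa5, Hoxa7, Hoxa9 and Hoxa10 on chromosome 6 (52201754 to 52240854) and Hoxb2 on chromosome 11 (96350525 to 96354012). Hoxc9 was at 18.3 to 57.8 CPM in growth plates and 0 to 3.19 CPM in calvariae, and Hoxc6 was at 12.5 to 29.7 CPM in growth plates with no count in any calvaria. Against a floor of 3 counts over the 7 calvariae, Hoxc6 was at least 39.5-fold higher in the growth plate. Hoxa5 had 62 counts against 3, a ratio of 32.7 (95% counting interval 10.7 to 163). Hoxa10 was at 6.82 to 32.5 against 0 to 3.19 CPM, and Hoxb2 at 16 to 30.7 against 0 to 3.17 CPM. The 14 Hox genes that missed the minimum in both tissues held 287 counts over the growth plates and 47 over the calvariae, although the calvariae were the more deeply sequenced. Without a count minimum 17 Hox genes were DEGs, and 5 when growth plate replicate 1 was left out of the comparison.

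Of 5 tested factors of limb identity, 2 were DEGs higher in the growth plate and none was higher in the calvaria (1, without growth plate replicate 1). Both reached the count minimum in the growth plate only, with 274 counts of Pitx1 and 267 of Shox2 over the growth plates against 11 and 30 over the calvariae, so that their direction was fixed by the filter and their call is a description. Pitx1 (13:55825051-55836192, GRCm38), which specifies the hindlimb, was at 48.7 to 106 CPM in the tibial growth plates and at 0 to 10.6 CPM in the calvariae (5.19 ± 0.46, adjusted p = 4.34e-08). Its highest calvaria was replicate 2, with the others at no more than 1.83 CPM. Shox2, a homeobox factor of the proximal limb cartilage, was 13.2-fold higher in the growth plate (45 to 83 against 1.1 to 12.8 CPM, adjusted p = 2.07e-08). Tbx2 was expressed in both, with medians of 108 and 93 CPM (adjusted p = 0.149).

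Transcription factors known from skull development were higher in the calvaria: 8 of 12 tested were DEGs in that direction and none in the other (median -1.56, and the same with genes absent from one tissue placed at their bound). Of the 12, 7 reached the count minimum in the calvaria only, which fixed their direction. Zic1, a zinc finger factor of the cranial mesenchyme and brain, was at 8.3 to 22.4 CPM in every calvaria and at 0 in every growth plate, at least 21.1-fold higher in the calvaria against the floor of 3 counts over the growth plates. En1, a homeobox factor that marks cells of the coronal suture and the frontal and parietal bones, was at 6.23 to 19.8 CPM and likewise 0 in every growth plate, at least 18.6-fold higher. Zic4 had 50 counts against 1 (ratio 31.6, 95% counting interval 5.42 to 1270). Zic1 (9:91358058-91365810) and Zic4 (9:91362413-91389348) overlap on chromosome 9 on opposite strands, and since the counting is not stated to use strand, their reads cannot be fully told apart. Six2 was 12.2-fold higher in the calvaria (10.4 to 44.7 against 0 to 6.86 CPM, adjusted p = 1.86e-05) and Alx4, whose loss leaves openings in the parietal bones, 4.67-fold (35.3 to 71.3 against 4.58 to 20.5 CPM, adjusted p = 4.92e-06). Twist1, which keeps sutures open, was present in both tissues and higher in the calvaria by 1.86-fold (adjusted p = 0.00109) with overlap. Smaller calls of the list, named after their values were seen, were Bcl11b (4.85-fold, adjusted p = 0.00465) and Msx1 (1.64-fold, adjusted p = 0.0309). The Msx1 call was lost, with adjusted p of 0.0508 to 0.0795, without growth plate replicate 2, 4 or 5 or calvaria replicate 4 or 7 and with all 80 libraries in the fit.

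Genes of bone matrix and mineralization differed in both directions. Of 15 tested osteoblast matrix and mineralization genes, 5 were DEGs higher in the growth plate, 3 were higher in the calvaria and 7 were not called (median 0.154). Alpl, the phosphatase that removes the inhibitor pyrophosphate, was at 1289 to 2415 CPM in growth plates and 303 to 581 CPM in calvariae (3.43-fold, adjusted p = 1.22e-07). Smpd3, a sphingomyelinase needed for mineralization, was 4.16-fold higher (adjusted p = 1.78e-08), and Phospho1, the matrix vesicle phosphatase, 3.37-fold (adjusted p = 4.49e-06). Ibsp, bone sialoprotein, was 4.11-fold higher (587 to 3245 against 385 to 552 CPM, adjusted p = 5.73e-06), and Ifitm5, a membrane protein of osteoblasts, 2.4-fold (adjusted p = 1.69e-04). Those higher in the calvaria were the osteocalcin genes and Ank. Bglap lay between 4289 and 8649 CPM in calvariae and between 1688 and 2701 CPM in growth plates (2.62-fold, adjusted p = 1.32e-05), and Bglap2 was 2.91-fold higher in the calvaria (adjusted p = 7.49e-06). The 2 are near-identical neighbours on chromosome 3, so that reads may be split between them and each value is uncertain. Ank, which exports pyrophosphate and was named after its value was seen, was at 262 to 301 CPM in calvariae and 138 to 210.3 CPM in growth plates (1.58-fold, adjusted p = 3.85e-04). The main collagen of bone overlapped between the tissues. Col1a1 had medians of 17920 CPM in growth plates and 15970 CPM in calvariae (adjusted p = 0.285) and Col1a2 of 30750 and 28100 CPM (adjusted p = 0.66). Sparc, osteonectin, had an adjusted p of 0.0225 but a fold change of 1.47, below the DEG threshold (adjusted p = 0.165 with the mouse as a block), and it was a DEG without growth plate replicate 5 or 6 or calvaria replicate 6 or 7 (log2 fold changes of 0.60 to 0.69). The list members Enpp1, Slc20a1 and Slc20a2, which set pyrophosphate and phosphate supply, had log2 fold changes of 0.05, -0.09 and 0.07 and were not called (adjusted p = 0.8 to 0.871).

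The osteoblast transcription factors mostly stayed uncalled. Runx2, the factor that starts osteoblast differentiation, had medians of 105 and 78.9 CPM (adjusted p = 0.189), and Sp7 (osterix), which acts after it, 106 and 90.4 CPM (adjusted p = 0.387). Atf4, a factor of matrix synthesis, was within 448 to 613 CPM in all libraries (adjusted p = 0.617). Of 8 tested, Dlx3 was called higher in the growth plate (1.74-fold, adjusted p = 0.0241) and Dlx6 in the calvaria (12.8 to 23 against 0 to 11.9 CPM, adjusted p = 0.0066). Of all genes tested, 12% and 12.8% were called in these directions. Dlx6 reached the count minimum in the calvaria only, which fixed its direction, so that its call is a description. The Dlx3 call was lost in the 12 libraries of mice with both tissues, without a block (adjusted p = 0.127) as well as with the mouse as a block (0.196), and without growth plate replicate 3 (0.074) or calvaria replicate 2 (0.0501).

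Osteocyte genes also differed in both directions. Mepe, a phosphoglycoprotein that restrains mineralization, was higher in the calvaria without overlap, at 282 to 598 CPM (median 375) against 25.2 to 106 CPM (median 94.6), a log2 fold change of -2.46 ± 0.24 (adjusted p = 1.77e-07). Sost, the secreted WNT antagonist sclerostin, was at 78.4 to 152 CPM in calvariae and 18.3 to 75.8 CPM in growth plates (2.63-fold, adjusted p = 6.97e-05). Dmp1, a matrix phosphoprotein of early osteocytes, and Cd109 were higher in the growth plate instead, by 1.53-fold (adjusted p = 0.00771) and 1.99-fold (adjusted p = 0.00274), with overlap between the tissues. Of 8 tested osteocyte genes, 2 were thus DEGs in each direction; the number higher in the growth plate was 4 without growth plate replicate 6 and 1 without replicate 7. Dmp1 lay close to the fold threshold. It fell below it, at log2 fold changes of 0.50 to 0.58, in 8 of 26 alternatives: both blocks, the 12 libraries without the block, no count minimum, filterByExpr, WT libraries added, and growth plate replicate 3 or 7 left out. Its adjusted p was 0.0493 with the mouse as a block. Cd109 stayed a DEG in each of the 26 alternatives run. Dmp1, Ibsp, Mepe and Spp1 are related acidic phosphoproteins whose genes lie in this order within one stretch of chromosome 5 (104202613 to 104441050, GRCm38). The neighbours Ibsp (ending at 104311469) and Mepe (starting at 104325329) differed in opposite directions, by 4.11-fold toward the growth plate and 5.5-fold toward the calvaria, while Spp1 was not called.

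Osteoclast genes were higher in the growth plate: 8 of 9 tested were DEGs in that direction and none in the other (median 0.959). Acp5, the acid phosphatase by which osteoclasts are stained, was at 6707 to 13340 CPM in growth plates and 1766 to 3898 CPM in calvariae (3.18-fold, adjusted p = 4.88e-06). Ctsk, the main collagen-degrading protease of osteoclasts, was 2.1-fold higher (2084 to 4587 against 1183 to 1780 CPM, adjusted p = 7.95e-05), and Oscar, a costimulatory receptor of their precursors, 2.55-fold (adjusted p = 9.84e-05). The acid secretion genes Clcn7 and Tcirg1, a chloride exchanger and a proton pump subunit, were 1.94-fold (adjusted p = 8.22e-05) and 2.02-fold higher (adjusted p = 8.72e-04). Ostm1, the partner of Clcn7, was low and overlapped, with medians of 12 and 17.3 CPM (adjusted p = 0.677). The summed level of the list lay between 10070 and 17270 CPM in growth plates and between 3438 and 6156 CPM in calvariae.

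Beside the targeted genes, other metalloproteinases and their inhibitors also differed. Of 15 tested, 6 were DEGs higher in the growth plate, Mmp2 and Mmp9 among them, and 1, Mmp8, was higher in the calvaria. Of the 15, 4 reached the count minimum in the calvaria only, which fixed their direction. Mmp14, the membrane-bound activator of pro-MMP-2, was at 909.7 to 1953 CPM in growth plates and 450.5 to 987 CPM in calvariae (2.16-fold, adjusted p = 1.21e-04), and Mmp15, a related membrane protease, was 2.33-fold higher (adjusted p = 7.62e-04). Timp1, the inhibitor that binds pro-MMP-9, was 2.93-fold higher without overlap (298 to 788 against 139.7 to 233 CPM, adjusted p = 2.80e-06). Mmp8, the collagenase of neutrophils, was 4.86-fold higher in the calvaria (adjusted p = 2.95e-04). It had 16 counts over the growth plates and 121 over the calvariae, so that its call is a description. With filterByExpr no member of the list was called higher in the calvaria. Timp2, the inhibitor that takes part in pro-MMP-2 activation, had medians of 726 and 752 CPM (adjusted p = 0.486), and Timp3 of 116 and 118 CPM (adjusted p = 0.323).

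Genes of fibrous tissue, sutures and periosteum gave 7 DEGs higher in the calvaria and 3 higher in the growth plate of 21 tested (median -0.0173). Of all genes tested, 12.8% and 12% were called in these directions. Of the 21, 4 reached the count minimum in the calvaria only, which fixed their direction, and none in the growth plate only. Col3a1, the collagen of loose and reticular tissue, was at 1423 to 2832 CPM in calvariae and 351 to 1151 CPM in growth plates (3.13-fold, adjusted p = 1.11e-05). Sfrp2, a secreted WNT modulator of suture and periosteal progenitors, was at 108 to 231 against 7.22 to 55 CPM (7.69-fold, adjusted p = 1.10e-07; 1.62e-07 without calvaria replicate 1). The small matrix protein Dpt was 4.75-fold (adjusted p = 3.48e-05), the fibril-associated collagen Col14a1 4.56-fold (adjusted p = 1.38e-04) and the microfibril protein Mfap4 3.73-fold higher in the calvaria (adjusted p = 3.54e-07). Pi16, a marker of universal fibroblasts, and Tnmd, a tenocyte marker, were 2.84-fold and 2.02-fold higher there (adjusted p = 4.63e-04 and 0.0221); the adjusted p of Tnmd was 0.0633 without calvaria replicate 4 and 0.0642 with WT libraries added to the fit. The 3 members higher in the growth plate were Gli1 and Ctsk, described above, and Col12a1, another fibril-associated collagen (1.69-fold, adjusted p = 0.00205). The number higher in the growth plate was 5 without calvaria replicate 4.

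The WNT list had 7 DEGs higher in the growth plate and 6 higher in the calvaria of 28 tested (median 0.184); 4 of the 28 reached the count minimum in the growth plate only and 9 in the calvaria only. Of the ligands, Wnt4 was at 25.3 to 45 CPM in growth plates and 0 to 9.58 CPM in calvariae (9.03-fold, adjusted p = 4.98e-06), and Wnt5b, made by prehypertrophic chondrocytes, was 2.76-fold higher (adjusted p = 1.34e-05). Of the secreted antagonists, Frzb, which is abundant in cartilage, was 14.1-fold higher in the growth plate (41.2 to 137 against 1.59 to 11 CPM, adjusted p = 2.47e-07), whereas Sfrp2 and Dkk3 were higher in the calvaria, the latter 2.08-fold (adjusted p = 1.40e-04). Shisa3, which holds back WNT and FGF receptors, had 117 counts over the calvariae and 2 over the growth plates, a ratio of 37 (95% counting interval 10 to 309). The receptor Fzd1 was 2.15-fold higher in the calvaria (adjusted p = 0.00317). In the BMP and TGF-beta list, 5 of 26 tested genes were higher in the growth plate and 2 in the calvaria. Of all genes tested, 12% and 12.8% were called in these directions, and the counts of each list in this paragraph are to be read against these. Of the 26, 1 reached the count minimum in the growth plate only and 4 in the calvaria only, which fixed their direction. Bmp1, a protease that trims procollagens, was 2.53-fold higher in the growth plate (adjusted p = 6.10e-05). The BMP-induced factors Id3 and Id2 went opposite ways, Id3 1.69-fold higher in the growth plate (adjusted p = 8.39e-04) and Id2 1.98-fold higher in the calvaria (114 to 166 against 44.3 to 92.7 CPM, adjusted p = 1.81e-04). Of 10 tested genes of the IGF axis, 2 reached the count minimum in the calvaria only, which fixed their direction. The axis had 4 DEGs higher in the growth plate and 2 in the calvaria. Its binding proteins differed among themselves: Igfbp5 was 2.95-fold higher in the calvaria without overlap (232 to 441 against 97.7 to 164 CPM, adjusted p = 2.87e-07), while Igfbp7 and Igfbp3 were 1.97-fold and 1.95-fold higher in the growth plate (adjusted p = 1.55e-05 and 7.93e-04). Without growth plate replicate 5, calvaria replicate 2 or calvaria replicate 4, and with the mouse as a block, 1 gene of the axis was called higher in the calvaria.

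The enzymes that make and assemble the matrix were broadly higher in the growth plate. Of 27 genes for collagen folding, processing and crosslinking, 21 were DEGs in that direction and none in the other (median 0.994). Of the 27, 3 reached the count minimum in the growth plate only and 1 in the calvaria only, which fixed their direction. Loxl4, a lysyl oxidase that crosslinks collagen, was at 95 to 269 CPM in growth plates and 6.38 to 18.6 CPM in calvariae (3.43 ± 0.25, adjusted p = 5.54e-09). Plod2, the lysyl hydroxylase of collagen telopeptides, was 3.86-fold higher (adjusted p = 2.07e-08), its partner Fkbp10 2.64-fold (adjusted p = 3.29e-06), the prolyl isomerase Ppib 2.35-fold (adjusted p = 7.27e-06) and P4hb, a subunit of prolyl hydroxylase, 2.07-fold (adjusted p = 2.17e-05). Pcolce2, an enhancer of procollagen cleavage, was 21.1-fold higher at a low level (7.5 to 51.2 against 0 to 2.2 CPM, adjusted p = 3.42e-07). Pcolce2 reached the count minimum in the growth plate only, which fixed its direction, so that its call is a description. Mia3, which loads procollagen for export, was not called, with medians of 159 and 121 CPM (adjusted p = 0.0713).

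Sulfated glycosaminoglycan synthesis, which makes the chains that load aggrecan with water, gave 14 DEGs higher in the growth plate and 1 higher in the calvaria of 24 tested (median 0.677). Of the 24, 3 reached the count minimum in the growth plate only and 3 in the calvaria only, which fixed their direction. Calls of low members, such as Chst3 below, are to be read with this. The sulfate transporter Slc26a2, whose loss causes chondrodysplasias, was 4.4-fold higher (22.9 to 70 against 2.08 to 23.8 CPM, adjusted p = 1.25e-04), and Papss2, which activates the sulfate, 4.12-fold (adjusted p = 5.21e-04). Chst11, a chondroitin 4-sulfotransferase, was 2.85-fold higher without overlap (adjusted p = 1.59e-06), and the heparan sulfate polymerase genes Ext1 and Ext2 3.06-fold and 1.82-fold (adjusted p = 1.00e-05 and 1.08e-04). The exception was Chst3, a chondroitin 6-sulfotransferase, at 9.58 to 35.9 CPM in calvariae and 0 to 18.1 CPM in growth plates (3.2-fold, adjusted p = 0.002). Of 17 general chaperones of the secretory pathway, 2 were DEGs, Calr (1.59-fold, adjusted p = 0.0022, below the fold threshold without growth plate replicate 6) and Pdia4 (1.79-fold, adjusted p = 0.00547), and the median was 0.234. Both were higher in the growth plate, as were 12% of all genes tested. Of 21 glycolysis and hypoxia response genes, 7 were higher in the growth plate and 2 in the calvaria (median 0.412). Of the 21, 2 reached the count minimum in the growth plate only and 2 in the calvaria only, which fixed their direction. Car12, a carbonic anhydrase at the cell surface, was 27.3-fold higher in the growth plate (90.3 to 256 against 1.1 to 12.5 CPM, adjusted p = 1.58e-09), the glucose transporter Slc2a1 2.51-fold (adjusted p = 1.25e-04) and Vegfa, the vessel growth factor of hypertrophic cartilage, 1.88-fold (adjusted p = 1.18e-04). Egln3 and Ndrg1, both induced by low oxygen, were higher in the calvaria, by 3.9-fold (adjusted p = 0.00248) and 1.5-fold (adjusted p = 0.0487). Egln3 reached the count minimum in the calvaria only, so that its direction was fixed and its call is a description. The Ndrg1 call was lost in 10 of the 14 settings that left out a library (all but growth plate replicates 3 and 4 and calvaria replicates 2 and 7), with adjusted p of 0.0542 to 0.101, and with the mouse as a block (0.0571). Aldoa, a glycolytic enzyme, had medians of 1365 and 1603 CPM (adjusted p = 1).

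The blood cell lists all leaned to the calvaria, and they held a large share of its RNA. Haemoglobin genes alone took 11.8 to 15.9% of the counts in the calvariae and 1.17 to 6.6% in the growth plates. Of 19 tested erythroid genes 18 were DEGs higher in the calvaria (median -1.69), of 16 neutrophil and granulocyte precursor genes all 16 (median -1.79), of 13 B cell genes 9 (median -1.67) and of 8 megakaryocyte genes 6 (median -1.39). Of all genes tested, 12.8% were called in this direction. The direction was fixed by the filter, through the count minimum in the calvaria only, for 2 of the erythroid, 3 of the neutrophil, 4 of the B cell and 5 of the 8 megakaryocyte genes, so that the last count in particular is a description. Among erythroid genes, Alas2, the first enzyme of haem synthesis in red cells, was at 910.3 to 1579 CPM in calvariae and 133 to 612 CPM in growth plates (3.3-fold, adjusted p = 1.97e-05), and the factor Gata1 was 3.81-fold higher (adjusted p = 8.22e-06). Hbb-bs was 3.07-fold higher (adjusted p = 6.20e-05), with a value that is uncertain because the adult globin genes share sequence. Among the granule proteins of neutrophil precursors, Ngp was 4.18-fold (932 to 2238 against 110.1 to 521 CPM, adjusted p = 7.37e-06) and Camp 3.73-fold higher (adjusted p = 7.53e-06), and their factor Cebpe 3.77-fold (adjusted p = 5.15e-06). The eosinophil granule genes Prg2 and Epx were 6.43-fold (adjusted p = 1.91e-05) and 4.57-fold higher (adjusted p = 1.48e-05). Among B cell genes, Cd79b, a part of the B cell receptor, was at 217 to 396 CPM in calvariae and 15 to 110.1 CPM in growth plates (4.01-fold, adjusted p = 3.17e-06), Vpreb3, of B cell precursors, was 3.76-fold (adjusted p = 3.40e-06) and Ighm 3.53-fold higher (adjusted p = 3.38e-06). The platelet genes Gp9 and Pf4 were 3.97-fold (adjusted p = 6.11e-06) and 2.63-fold higher (adjusted p = 1.24e-05).

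Macrophage genes followed with 9 of 12 DEGs higher in the calvaria (median -0.896), such as Lyz2, a lysozyme shared with granulocytes (2.59-fold, adjusted p = 2.47e-05), and the complement gene C1qc (2.1-fold, adjusted p = 1.82e-04). Cd68, a lysosomal protein that osteoclasts also carry, was the member that went the other way, 1.89-fold higher in the growth plate (195 to 333 against 103 to 172 CPM, adjusted p = 1.91e-04). Cell division genes were higher in the calvaria as well: 22 of 25 were DEGs higher in the calvaria and none was higher in the growth plate (median -1.08). Ccna2, a cyclin of S phase and mitosis, was at 56.9 to 187 CPM in calvariae and 12.5 to 47.5 CPM in growth plates (3.98-fold, adjusted p = 1.72e-05), the replication helicase subunits Mcm2 and Mcm7 were 2.64-fold (adjusted p = 2.05e-06) and 2.21-fold higher (adjusted p = 5.73e-06), and the spindle gene Tpx2 2.51-fold (adjusted p = 2.45e-05). Growth plate replicate 3 had the least haemoglobin of the 14 libraries and the lowest summed neutrophil level, 673 CPM against at least 5862 CPM in the calvariae. The part of marrow content in the cell division genes was not tested. With the erythroid, neutrophil, B cell, macrophage and megakaryocyte lists left out before scaling, an alternative chosen after seeing the data, 2453 genes were DEGs.

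**Figure D3:**
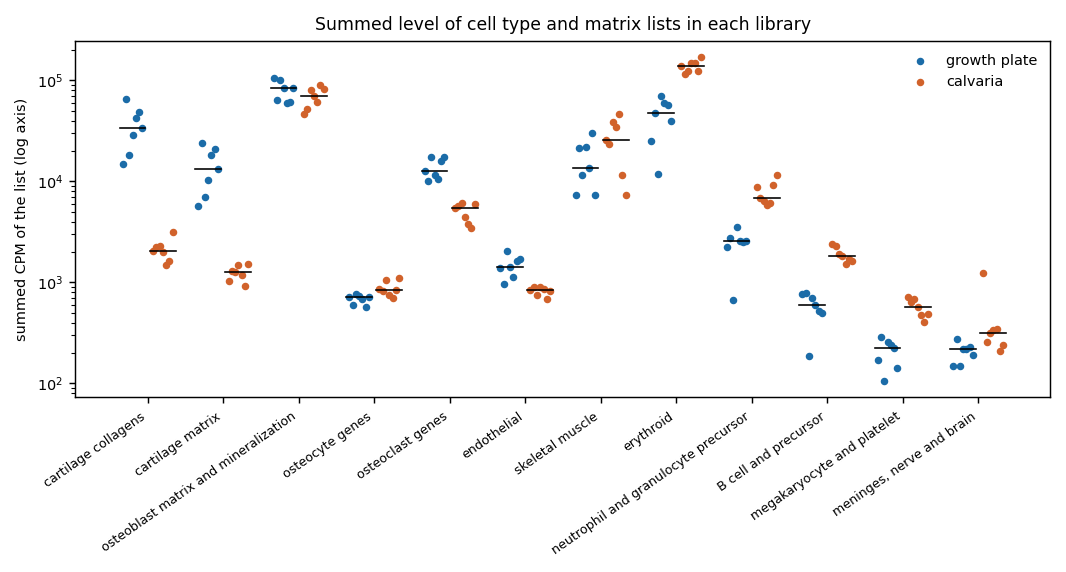
Summed CPM of the members of 12 cell type and matrix lists in each of the 7 growth plate and 7 calvaria libraries, on a log axis; a point is a library and the line is the median. Cartilage collagens lay at 14920 to 65160 CPM in growth plates and 1476 to 3138 CPM in calvariae, whereas the erythroid list lay at 11990 to 70200 CPM and 115600 to 170900 CPM and skeletal muscle overlapped.

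Muscle, vessel and nerve genes differed as well. Skeletal muscle RNA was present in every library, with summed levels of 7287 to 30200 CPM in growth plates and 7291 to 46110 CPM in calvariae, which overlapped. Of 27 tested muscle genes, 14 were DEGs higher in the calvaria and none in the growth plate (median -0.996); with all 80 libraries in the fit 9 were higher in the calvaria. Myh8, the perinatal myosin heavy chain, was at 112 to 257 CPM in calvariae and 5.05 to 23.9 CPM in growth plates (-3.97 ± 0.27, adjusted p = 1.58e-09), and Myh2, the myosin of fast oxidative fibres, was 7.26-fold higher in the calvaria (adjusted p = 7.39e-06). Mb, myoglobin, was 5.71-fold higher there (adjusted p = 3.22e-05). Myh4, the myosin of the fastest fibres, had the higher median in the growth plates, 1254 against 648 CPM, and was not called (adjusted p = 0.0829). It was called higher in the growth plate with the mouse as a block (adjusted p = 0.0111) and without growth plate replicate 1 (0.0477) or calvaria replicate 4 (0.0377). The general fibre genes Acta1 and Ckm were not called (adjusted p = 0.155 and 0.381). From outside the list, Csrp3, a protein of the sarcomere, and Smtnl1, a regulator of muscle contraction, were 5.63-fold (adjusted p = 1.81e-05) and 8.01-fold higher in the calvaria (adjusted p = 2.64e-05).

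Endothelial genes were higher in the growth plate in 10 of 12 tested cases (median 0.859). Cdh5, the cadherin of endothelial junctions, was at 65 to 173 CPM in growth plates and 43.4 to 64.8 CPM in calvariae (2.3-fold, adjusted p = 4.53e-05), Cldn5 was 3.18-fold (adjusted p = 2.76e-05) and the VEGF receptor gene Flt1 2.13-fold higher (adjusted p = 1.77e-04). Vwf, von Willebrand factor, which platelets and their precursors also contain, was the exception, 2.06-fold higher in the calvaria (adjusted p = 2.20e-04). Of the pericyte genes, Cspg4 (also made by chondrocytes) was 5.46-fold (adjusted p = 7.74e-08) and Mcam 3.34-fold higher in the growth plate (adjusted p = 9.29e-06), while the smooth muscle actin Acta2 was 2.04-fold higher in the calvaria (adjusted p = 0.00397). In the list for meninges, nerve and brain, 4 of 7 were higher in the calvaria, with 3 of the 7 above the count minimum there only, and 1, S100b, which chondrocytes express, was higher in the growth plate (3.33-fold, adjusted p = 0.00152). Ptgds was at 21.4 to 928 CPM in calvariae and 0 to 6.74 CPM in growth plates (adjusted p = 1.45e-04; 7.62e-07 without calvaria replicate 1), and the myelin gene Mbp at 25.5 to 131 against 8.32 to 25.3 CPM (adjusted p = 4.37e-04; 6.69e-04 without that library). The marrow stroma genes Cxcl12 and Fabp4 were 2.04-fold (adjusted p = 2.96e-04) and 1.84-fold higher in the calvaria (adjusted p = 0.0103, the latter 0.0527 with WT libraries added to the fit), and Cfd, adipsin, was 4.52-fold higher in the growth plate (adjusted p = 0.00323).

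Whether these tissue differences differed between genotypes was tested as the difference of the dKO contrast and the WT contrast, which share no library. Of 10525 genes tested over the 28 libraries, 3.05% (321) were called at an adjusted p under 0.05. For 129 the dKO log2 fold change lay further toward the growth plate than the WT one, and for 192 further toward the calvaria. In the same fit 2621 genes were DEGs between the tissues in the dKO and 487 in WT, 357 of them in both with the same direction and 2 in both with opposite directions. The count of 321 was unstable: it lay between 99 and 662 when single libraries were left out, was 62 with all 80 libraries in the fit, and was 10 with the mouse as a block in the 24 libraries of mice that gave both tissues, against 31 in those libraries without the block. The libraries whose removal moved it by more than 1.5 times were WT growth plate replicate 3 (99), 1 (191) and 6 (193), WT calvaria replicate 6 (112), 2 (139), 7 (199) and 3 (662), dKO growth plate replicate 3 (114), 7 (184) and 6 (192), and dKO calvaria replicate 1 (173), 2 (203) and 5 (209).

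The cartilage and Hox genes were not among those called. No cartilage collagen, cartilage matrix gene or tested Hox gene passed, and the list medians of the tissue difference were 4.82 in the dKO and 3.94 in WT for the cartilage collagens and 4.05 and 3.99 for the Hox genes. For Col2a1 the tissue difference was 5.96 in the dKO and 4.58 in WT, a difference of 1.38 ± 0.72 (adjusted p = 0.285), and for Acan it was 4.97 and 3.63 (1.34 ± 0.46, adjusted p = 0.0968). Col10a1 differed by 1.92 ± 0.60 between genotypes (adjusted p = 0.072). These estimates are positive with wide errors, and a miss of the threshold does not show that the genotypes were alike. The tissue contrast of the remaining Mmp9 reads was 1.66 in the dKO and 1.60 in WT (adjusted p of the difference = 0.934), although the level itself was several times lower in the dKO. Mepe and Sost were higher in the calvaria in both genotypes, with WT log2 fold changes of -2.14 (adjusted p = 1.66e-08) and -1.41 (adjusted p = 2.58e-05).

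Of the 5 blood cell lists, 4 had members called and the megakaryocyte list had none of 8 tested. Against 3.05% of all genes, 11 of 16 tested neutrophil genes passed, 7 of 13 B cell genes, 4 of 19 erythroid genes and 3 of 12 macrophage genes. Of other lists, 6 of 25 cell division genes and 4 of 12 endothelial genes passed. The neutrophil list had a median tissue difference of -1.82 in the dKO and -0.174 in WT, and the erythroid list of -1.71 and -0.426. Ctsg, cathepsin G of neutrophil granules, had the smallest adjusted p: it was at 61 ± 24.1 CPM in dKO growth plates, 162 ± 37.8 in dKO calvariae, 143 ± 28.5 in WT growth plates and 109 ± 15.9 in WT calvariae (mean ± SD, n = 7 each; difference of log2 fold changes -1.74 ± 0.28, adjusted p = 0.00484). The dKO growth plate was thus the group with the least Ctsg. Vpreb3 showed the same order, with 42.7 ± 18.3 CPM in dKO growth plates and 132 ± 38.9 to 173 ± 46.5 CPM in the other groups (-1.85 ± 0.33, adjusted p = 0.00565). Arhgdib, a gene of blood cells, Pld4 and Ly6c2 of myeloid cells, and AB124611 gave differences of -1.46, -1.60, -1.68 and -1.62, none of them called with the mouse as a block (adjusted p = 0.0522 to 0.101). With the mouse as a block Ctsg, Vpreb3, Cd79b, Ighm, Pou2af1 and Cxcl12 were among the 10 genes still called, at adjusted p of 0.0346 to 0.0489. The part of marrow content in these differences was not tested.

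**Figure D4:**
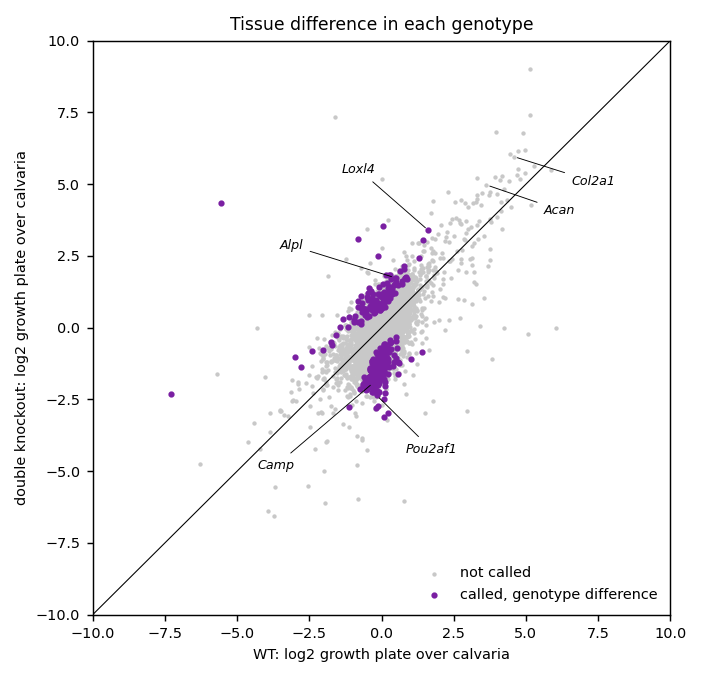
Log2 fold change, growth plate over calvaria, in WT (horizontal axis) and in the dKO (vertical axis) for the 10525 genes tested over 28 libraries; purple points are the 321 genes called for the difference between genotypes and the line marks equal values. Called genes lie above the line (129, such as Loxl4 and Alpl) or below it (192, such as Camp and Pou2af1), and Col2a1 and Acan are not among them.

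Matrix genes were among the calls in the other direction, where the dKO log2 fold change lay further toward the growth plate than the WT one. For some, such as Htra1, this was a smaller difference toward the calvaria in the dKO. Alpl was at 1635 ± 380 CPM in dKO growth plates and 910 ± 222 CPM in WT growth plates, against 489 ± 94.5 and 658 ± 132 CPM in the calvariae (mean ± SD, n = 7 each; 1.28 ± 0.24, adjusted p = 0.00592). Loxl4 had a tissue difference of 3.40 in the dKO and 1.62 in WT (1.78 ± 0.35, adjusted p = 0.00824), and Col18a1, a basement membrane collagen, of 3.04 and 1.45 (1.59 ± 0.33, adjusted p = 0.0095). Both were called with the mouse as a block. Igfbp3 changed direction, higher in the growth plate in the dKO (0.92) and higher in the calvaria in WT (-0.82; 1.74 ± 0.29, adjusted p = 0.00565). Htra1, a secreted serine protease, was at 287 ± 33.7 CPM in dKO growth plates and 279 ± 53.7 CPM in dKO calvariae and had a WT difference of -1.16 (adjusted p = 2.90e-06; genotype difference 1.20 ± 0.22, adjusted p = 0.00592). The collagen hydroxylase family member P3h3 differed by 1.15 ± 0.22 (adjusted p = 0.00824). With the mouse as a block Alpl, Igfbp3, Htra1 and P3h3 were not called (adjusted p = 0.0896 to 0.131). Of the metalloproteinase and inhibitor list 5 genes were called, Mmp14 (0.99, adjusted p = 0.0417), Mmp15 (1.32, adjusted p = 0.0488), Timp1 (1.06, adjusted p = 0.0363), Timp2 (0.83, adjusted p = 0.0369) and Mmp2 itself (1.41, adjusted p = 0.0424), the last from the few reads left in the dKO. None of these 5 was among the 10 genes called with the mouse as a block, and each lost its call in 9 to 20 of the 28 settings that left out a single library (adjusted p up to 0.101).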

How the data were processed

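Growth plates and calvariae were pulverized and 30 ng of total RNA per sample went into a bulk form of MARS-seq, which reads the 3′ ends of transcripts. The authors trimmed reads with cutadapt, aligned them to GRCm38 with STAR 2.7.3a and deposited raw counts per gene from htseq-count. Any collapsing of reads by molecular barcode is not given in the sources used here. The normalized counts that were deposited as well were not used. Groups were taken from the sample titles.

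The quasi-likelihood test of edgeR 4.0.16 (R 4.3.3) was run after TMM normalization on genes that reached 15 raw counts in any fitted library, without covariates, on 7 growth plates and 7 calvariae, with Benjamini-Hochberg adjustment over all genes tested. The SE is the log2 fold change divided by the square root of F. The genotype difference was tested in the same way over 28 libraries and called at an adjusted p under 0.05. Detected genes numbered 11582 to 13668 in the growth plates and 12206 to 14220 in the calvariae. At these depths a gene near the count minimum is called by large differences alone. Intervals and floors cover counting error only, at 95% and with a floor of 3 counts.

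Of 14688 gene IDs, 14676 matched a gene symbol and 14678 had coordinates in GENCODE M21. The members and lists were chosen with earlier results of these data known. Named were, for each direction, the 12 DEGs that changed most, given no overlap and a mean of at least 50 CPM in the higher tissue, per list up to 6 members with the smallest adjusted p and up to 3 abundant ones not called, the 10 genes with the smallest adjusted p for the genotype difference, and Mmp2 and Mmp9. Some were left out, and a few others, among them Ifitm5, Ank, Bcl11b, Msx1 and genes called with the mouse as a block, were chosen after their values were seen.

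The number that opens each sample description was read as the mouse. By it 6 dKO mice gave both tissues, and the deviations of the 2 libraries of one mouse from their group means correlated at -0.342 to 0.139 (mean -0.0157), against a mean of 0.0016 for libraries of different mice. In the dKO, numbers in the titles join the same mouse for some replicates and different mice for others. The alternatives tried were other count filters, RLE size factors, DESeq2 1.42.0, further libraries in the fit, blocks, gene lists left out and single libraries left out. The script was tested on simulated data.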

Additional observations from a re-analysis of the deposited data

Results flagged for a closer look

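The highest or lowest library of its tissue was compared with the rest of the 7 by Dixon's criterion for 456 values, the levels of the genes and lists in the 2 tissues, and 44 stood apart; about 1 in 20 do so by chance, and values of one library are not independent. No other library had as many as calvaria replicate 1, which had 15 of the 44, and calvaria replicate 6 followed with 8.

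In calvaria replicate 1 Meltf at 2.08 CPM (nearest other library 0), Il17b at 8.3 CPM (nearest other library 1.83), Sox8 at 6.23 CPM (nearest other library 2.38), Hoxc10 at 4.15 CPM (nearest other library 1.1), Shisa3 at 4.15 CPM (nearest other library 16), Igfbp5 at 232 CPM (nearest other library 366), Hba-a2 at 9180 CPM (nearest other library 332), Fcrla at 127 CPM (nearest other library 82.4), Acta2 at 45.7 CPM (nearest other library 145), Ptgds at 928 CPM (nearest other library 79.7), Mbp at 131 CPM (nearest other library 64.2), Ly6c2 at 243 CPM (nearest other library 166), the summed hedgehog pathway list at 212 CPM (nearest other library 260), the summed insulin-like growth factor axis list at 832 CPM (nearest other library 1050) and the summed meninges, nerve and brain list at 1240 CPM (nearest other library 348) stood apart. In calvaria replicate 6 Panx3 at 15.9 CPM (nearest other library 7.69), Mmp13 at 30.9 CPM (nearest other library 14.7), Spp1 at 2410 CPM (nearest other library 1300), Sox6 at 102 CPM (nearest other library 58.1), Slc26a2 at 23.8 CPM (nearest other library 10.2), Ccna2 at 187 CPM (nearest other library 112), Hemgn at 454 CPM (nearest other library 305) and the summed chondrogenic transcription factors list at 296 CPM (nearest other library 209) stood apart. In calvaria replicate 7 Syt8 at 12.8 CPM (nearest other library 2.14), Dmp1 at 322 CPM (nearest other library 246), Ext2 at 86.2 CPM (nearest other library 64.3) and P4hb at 1360 CPM (nearest other library 1020) stood apart. In calvaria replicate 5 Gapdh at 673 CPM (nearest other library 35.3), Csrp3 at 176 CPM (nearest other library 90.6) and Smtnl1 at 124 CPM (nearest other library 68.1) stood apart. In calvaria replicate 2 Pitx1 at 10.6 CPM (nearest other library 1.83) and Oscar at 19.9 CPM (nearest other library 14.3) stood apart. Hba-a2 shares its sequence with Hba-a1, so that its level in calvaria replicate 1 is uncertain.

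Growth plate replicate 2 had Sost at 75.8 CPM (nearest other library 40.9), S100b at 130 CPM (nearest other library 60.7) and the summed marrow stroma and adipocyte list at 866 CPM (nearest other library 500) set apart. In growth plate replicate 3 Col12a1 at 278 CPM (nearest other library 177), Ighm at 82.5 CPM (nearest other library 256) and Fos at 85 CPM (nearest other library 44.3) stood apart. Growth plate replicate 4 had Myh2 at 253 CPM (nearest other library 128) set apart. In growth plate replicate 6 Wnt5b at 147 CPM (nearest other library 93.9) and Egln3 at 17.1 CPM (nearest other library 6.74) stood apart. In growth plate replicate 1 Spry4 at 44 CPM (nearest other library 12) stood apart. Growth plate replicate 5 had Papss2 at 126 CPM (nearest other library 57.8) set apart. In growth plate replicate 7 Zic4 at 2.29 CPM (nearest other library 0) stood apart.

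For 48 of the genes named here the tissue difference itself differed between dKO and WT in the 28-library test, given as the dKO log2 fold change minus the WT one, positive where the dKO lay further toward the growth plate. For matrix, mineralization and collagen processing genes the values were Alpl 1.28, Col12a1 0.98, Col18a1 1.59, Loxl4 1.78, Ppib 0.72, P3h3 1.15, Ext1 1.09 and Htra1 1.20. For metalloproteinases and inhibitors the values were Mmp2 1.41, Mmp14 0.99, Mmp15 1.32, Timp1 1.06 and Timp2 0.83. For receptors, ligands and binding proteins of growth plate signalling the values were Pth1r 1.24, Wnt5b 1.18 and Igfbp3 1.74. For endothelial and pericyte genes the values were Cdh5 0.91, Flt1 1.00, Pecam1 0.75 and Cspg4 1.12. For cell division genes the values were Mcm2 -1.23, Mcm7 -0.89, Ccna2 -2.14 and Tpx2 -1.16. For erythroid genes the values were Hemgn -1.74, Gata1 -1.72 and Car1 -1.35. For granulocyte, macrophage and other myeloid genes the values were Cebpe -1.68, Ngp -1.79, Camp -1.64, Ctsg -1.74, Prg2 -2.60, Epx -2.07, Lyz2 -1.30, C1qc -0.82, Pld4 -1.60 and Ly6c2 -1.68. For B cell genes the values were Cd79b -1.61, Vpreb3 -1.85, Ighm -1.54, Pou2af1 -2.19 and Fcrla -2.17. For other genes the values were Bcl11b 4.99, Cxcl12 -1.26, AB124611 -1.62, Arhgdib -1.46, Arl5c -1.89 and CT010467.1 1.68. The value of Bcl11b rests on 11 counts over the dKO growth plates. With the mouse as a block in the 24 libraries of mice that gave both tissues, 10 genes of all tested were called.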

How the results depend on the processing

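The 2514 DEGs of the tissue comparison became 1816 with the mouse as a replicate block in the 12 libraries of mice with both tissues (2095 in those libraries without the block), 2352 with the title number as a block, 2516 with DESeq2, 2756 without a count minimum, 2016 with filterByExpr, 2812 with all 80 libraries and 2233 to 2570 with single libraries left out, 1055 to 1265 of them higher in the growth plate and 1142 to 1356 higher in the calvaria. Among the 300 genes checked for this, no call changed direction. Of the genes named for the tissue difference, Sox6, Dlx3, Ndrg1 and Dmp1 were no longer DEGs with the mouse as a block and Myh4 became one; Dlx3 and Dmp1 were already lost in the same 12 libraries without the block. With filterByExpr, which tested 7141 genes, the lists lost low members: 1 chondrogenic factor, 2 Hox genes, 3 skull factors, 8 glycosaminoglycan synthesis genes and, higher in the growth plate, 4 WNT genes were called.

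The genotype difference depended on the settings. Its 321 calls (129 positive, 192 negative) became 62 with all 80 libraries (39 and 23), 31 in the 24 paired libraries without the block (12 and 19) and 10 with the mouse as a block (3 and 7). DESeq2 gave 228 positive and 234 negative calls, and leaving out the blood cell lists, chosen after seeing the data, gave 153 positive and 123 negative ones, so that positive calls were then the more numerous. Single libraries left out gave 99 to 662 calls, 37 to 312 positive and 62 to 350 negative; the cause was not tested. Totals of 329333 to 1919945 counts limit both comparisons for low genes.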

Other observations

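Gapdh, a glycolytic enzyme often used as a reference, was at 744 and 701 CPM in growth plate replicates 2 and 5 and at 673 CPM in calvaria replicate 5, and at 14.3 to 36 CPM in the other 11 libraries. Gapdh has many processed copies in the mouse genome, so that its counts are uncertain. Of the immediate early genes, 1 of 9 tested was called in each direction, where 12% and 12.8% of all genes tested were called. Fos was 2.52-fold higher in the growth plate (adjusted p = 0.00102) and Zfp36 2.12-fold higher in the calvaria (adjusted p = 0.00639). CT010467.1 was abundant in both tissues, with medians of 7494 CPM in growth plates and 1938 CPM in calvariae (3.66-fold, adjusted p = 6.48e-06).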
